A study of Mus musculus with 2 samples.

Results

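The smooth muscle type contractile genes are a set of 10 mouse genes for actin filaments, the proteins bound to them and the light chain of the myosin that pulls on them. Members were the probe sets whose only gene symbol in the platform's annotation is Acta2, Tagln, Tagln2, Cnn1, Cnn2, Cnn3, Myl9, Tpm1, Tpm2 or Cald1, which gave 29 of 34945 probe sets with 1 symbol. The study hybridised 1 Affymetrix array for each of 2 mouse osteosarcoma cell lines. LM8 is labelled a highly metastatic subline, and Dunn is its non-metastatic parental line. Both were left untreated and grown in Minimum Essential Medium containing 1% non-essential amino acids and 10% serum from fetal calves, each as 1 culture, so nothing below has a replicate check and no test of significance was possible.

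In contractile cells, myosin slides along actin filaments once its regulatory light chain is phosphorylated, and tropomyosin, calponin and caldesmon lie along the filament and tune that motion. Many of these genes are read out by serum response factor (SRF), which binds a short DNA element called the CArG box, together with myocardin in smooth muscle or the related MRTF proteins in most other cells. Mesenchymal cells outside muscle also make several of them, smooth muscle actin in activated fibroblasts being the best known case.

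Promoter sequence is shown for Acta2, Cnn2 and Myl9, since among the members with a promoter entry these alone held a CArG-type element in the 250 bases before the annotated start. Each is written 5′ to 3′ from RefSeq (GRCm38.p6), with the elements in capitals. Acta2 lies at chr19:34255374-34255623 on the minus strand, Cnn2 at chr10:79988350-79988599 on the plus strand and Myl9 at chr2:156775214-156775463 on the plus strand.
Acta2: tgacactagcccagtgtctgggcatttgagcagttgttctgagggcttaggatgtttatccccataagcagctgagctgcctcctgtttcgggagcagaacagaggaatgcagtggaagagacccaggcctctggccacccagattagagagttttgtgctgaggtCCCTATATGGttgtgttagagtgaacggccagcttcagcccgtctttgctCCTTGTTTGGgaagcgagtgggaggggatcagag
Cnn2: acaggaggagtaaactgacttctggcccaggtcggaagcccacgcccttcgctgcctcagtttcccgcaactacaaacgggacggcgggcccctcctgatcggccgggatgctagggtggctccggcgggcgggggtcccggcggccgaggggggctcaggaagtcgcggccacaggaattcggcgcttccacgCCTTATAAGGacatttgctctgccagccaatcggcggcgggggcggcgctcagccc
Myl9: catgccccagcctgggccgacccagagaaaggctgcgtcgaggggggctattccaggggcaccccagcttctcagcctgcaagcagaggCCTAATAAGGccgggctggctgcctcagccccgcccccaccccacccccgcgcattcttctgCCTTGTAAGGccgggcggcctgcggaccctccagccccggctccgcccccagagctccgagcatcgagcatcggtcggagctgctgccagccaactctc

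An exact CArG box was searched as CC, 6 bases that are each A or T, and GG, and a relaxed one allowed 1 of the 6 inner bases to be G or C. Both forms look alike on either strand. The exact box occurred in 1.47% of 32851 promoters of this length and the relaxed one in 8.59%. Of the 10 members, 9 had a promoter entry, all but Tagln. Cnn2 held 1 exact box, starting at position -56 counted back from the annotated start, and Myl9 held 1 exact and 1 relaxed box, at -161 and -99. Acta2 held 2 relaxed boxes, at -84 and -34. No match was found in the windows of Cnn1, Cnn3, Tpm1, Tpm2, Tagln2 or Cald1. A match describes these letters only. As shown next, the genes with a match included the members with the highest and the lowest ratio.

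The contractile genes did not move as 1 block between the lines. Smooth muscle actin (Acta2) and beta-tropomyosin (Tpm2) were at least 2-fold higher in LM8, calponin 2 (Cnn2) was at least 2-fold lower, and 5 measured genes lay between. The smooth muscle genes Tagln and Cnn1 were not above background in either line. Here a signal is a linear MAS5 intensity. The floor of an array is its median signal, 18.96 in LM8 and 21.06 in Dunn, and a probe set counts as measured if at least 1 array lies above its floor. That held for 22 of the 29 probe sets and for 8 of the 10 genes, and each gene took the value of its brightest measured probe set. All 22 lay above the floor on both arrays, so their ratios are not bounds.

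Among all 11830 measured genes, the share past 2-fold was 6.51% on the higher side in LM8 and 8.84% on the lower side. Against that, 2 of the 8 measured contractile genes were higher and 1 was lower, counts too small to be set apart from the background. By probe set, 5 of 22 were at least 2-fold higher and 1 was lower, against 6.16% and 8.17% of all measured probe sets with 1 symbol, and 4 of those 5 belong to Tpm2. The median log2 ratio of LM8 over Dunn was 0.11 over the 8 genes and -0.08 over all measured genes, with 4 members above 0 and 4 below.

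**Figure D1:**
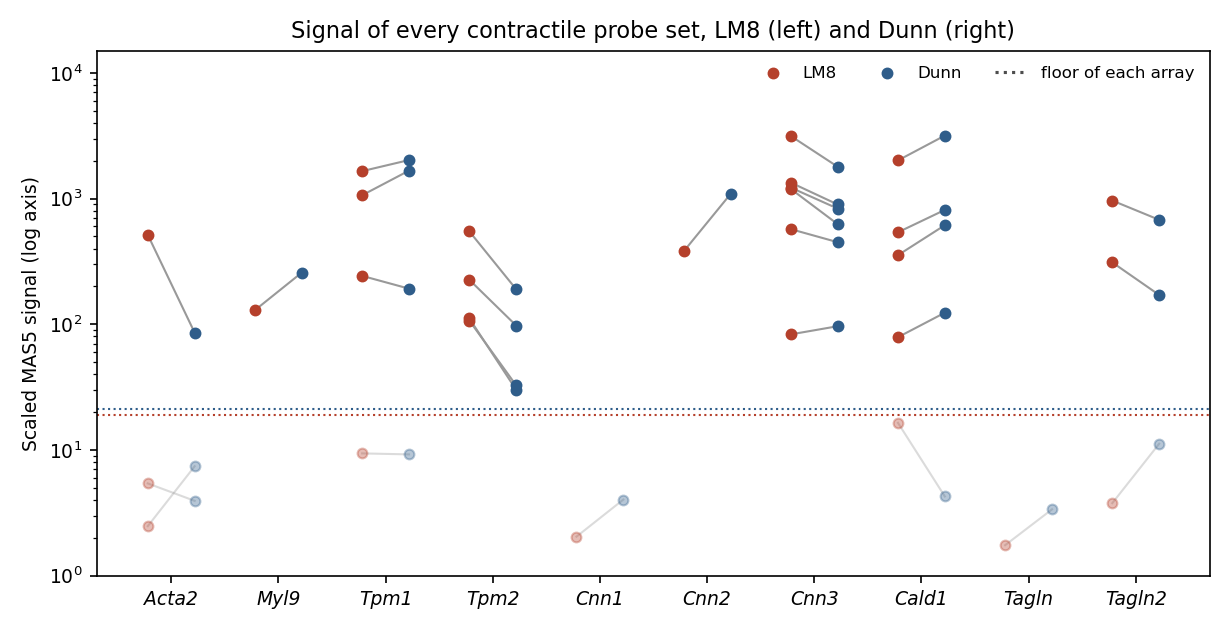
Signals (log axis) of all 29 contractile probe sets, LM8 in red on the left and Dunn in blue on the right of each gene, joined per probe set; dotted lines are the floors and pale points are probe sets under both. Among probe sets above the floors, those of Acta2, Tpm2 and Tagln2 and 5 of 6 of Cnn3 slope down towards Dunn, those of Cnn2, Myl9 and Cald1 slope up towards it, and Cnn1 and Tagln lie under the floors.

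Acta2 encodes the alpha actin that smooth muscle and activated fibroblasts build into contractile filaments. Its probe set 1416454_s_at had a signal of 515 in LM8 against 85.7 in Dunn, a 6.01-fold higher level with a log2 ratio of 2.59. That ranked 49th from the top among the 11830 measured genes. The ending _s_at marks probes that can match transcripts of more than 1 gene. The other Acta2 probe sets, 1444105_at and 1456658_at, had signals of 5.42 and 2.48 in LM8 against 3.94 and 7.42 in Dunn, under both floors, so the Acta2 value rests on 1 probe set.

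The other actins did not share this difference. Skeletal alpha actin (Acta1) had signals of 15.1 in LM8 and 13.8 in Dunn, and the enteric gamma actin Actg2 had 1.70 and 10.4, all under the floors. Cardiac actin (Actc1) lay just above the floors at 24.0 in LM8 and 22.9 in Dunn. The cytoplasmic actins differed little, with 9382 in LM8 and 10329 in Dunn for Actb (log2 ratio -0.14) and 6110 and 6964 for Actg1 (-0.19).

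Myl9 encodes the regulatory light chain whose phosphorylation switches on smooth muscle and nonmuscle myosin. Its single probe set, 1452670_at, had a signal of 129.5 in LM8 against 258.0 in Dunn, which is 1.99-fold lower, just inside the 2-fold line (log2 ratio -0.99). Just past that line on the higher side, the nearest contractile probe set was one of Tpm2 at 1.21. Of the Acta2 and Myl9 pair, actin and the myosin light chain that works on it, one was thus higher and the other lower in LM8.

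Tropomyosins are coiled-coil proteins that wind along the actin filament. Tpm2 was higher in LM8 on each of its 4 probe sets. The brightest, 1419738_a_at, had 549 in LM8 against 190 in Dunn (2.89-fold, log2 ratio 1.53), and the others had 226, 107 and 111 in LM8 against 97.7, 32.6 and 30.1 in Dunn. Their log2 ratios ran from 1.21 to 1.89 with an SD of 0.29 between probe sets, close to the median of 0.30 over 5521 genes with several measured probe sets. This SD reflects probes and splice forms and is not replicate error.

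Tpm1, the alpha-tropomyosin gene, is spliced into many forms and its probe sets disagreed. The brightest had 1653 in LM8 against 2025 in Dunn (log2 ratio -0.29) and the next had 1063 against 1669 (-0.65), while a dimmer one had 243 in LM8 against 192 in Dunn (0.34). The SD between them was 0.50, larger than the brightest probe set's difference, so Tpm1 has no settled direction. The tropomyosin gene Tpm3 had 1708 in LM8 against 864 in Dunn on its brightest probe set (0.98). Its ratios were 1.32 and 1.42 on 2 dimmer ones above both floors, while the dimmest, at its floor in LM8 against 25.2 in Dunn, had -0.41. Tpm4 had 1366 against 941 (0.54).

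**Figure D2:**
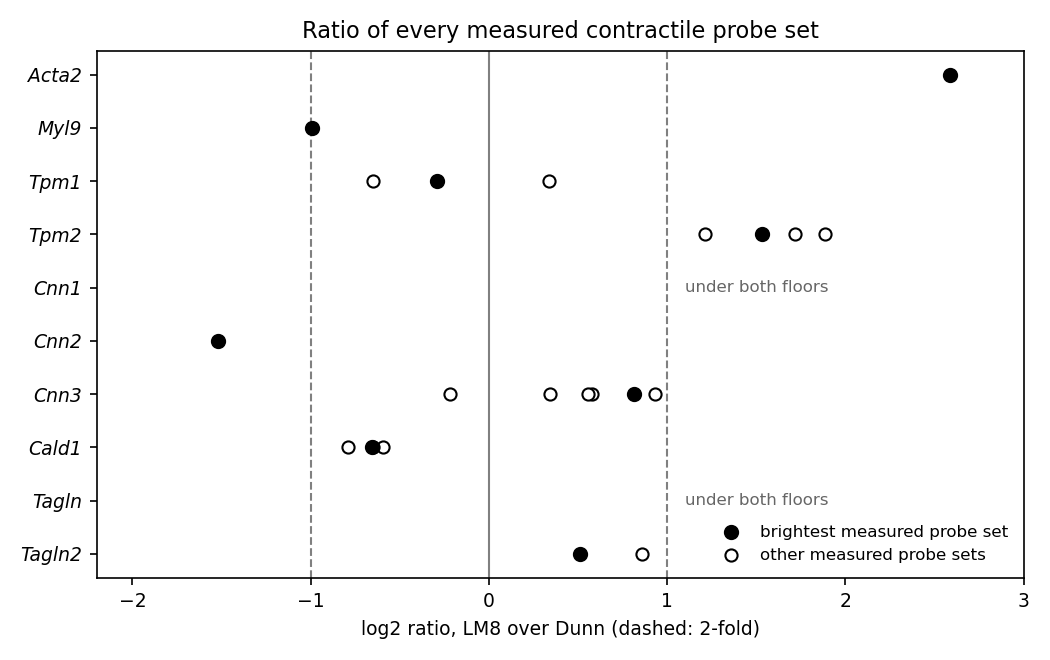
Log2 ratios of LM8 over Dunn for the 22 measured contractile probe sets by gene, with the brightest of each gene filled and dashed lines at 2-fold. The probe sets of Tpm2 (1.21 to 1.89) and Cald1 (-0.79 to -0.59) each keep to one side of 0, whereas those of Tpm1 and Cnn3 fall on both.

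Calponins bind actin and slow the myosin motor, with Cnn1 typical of smooth muscle and Cnn2 and Cnn3 found in many cells. Cnn1 had signals of 2.04 in LM8 and 4.03 in Dunn on its 1 probe set, 1417917_at, well under the floors. Cnn2 had 380 in LM8 against 1087 in Dunn on its 1 probe set, 1450981_at, and was 2.86-fold lower (log2 ratio -1.52), 386th from the bottom among all measured genes. It was the lowest ratio of the set.

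Cnn3 leaned the other way. Its brightest probe set had 3146 in LM8 against 1792 in Dunn (1.76-fold, log2 ratio 0.81), and 5 of its 6 probe sets were higher in LM8, none of them 2-fold. The exception was the dimmest, 83.1 in LM8 against 96.5 in Dunn (-0.22). All but 1 of the Cnn3 probe sets end in _x_at, which marks probes that may also bind related transcripts. The 1 that does not, 1426724_at, had the highest Cnn3 ratio, 1193 in LM8 against 626 in Dunn (0.93).

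Cald1 encodes caldesmon, which blocks myosin on actin until calcium signalling releases it. It was modestly lower in LM8, with 2011 against 3171 in Dunn on the brightest probe set (1.58-fold lower, log2 ratio -0.66). The other 3 measured probe sets had 539, 355 and 78.9 in LM8 against 813, 614 and 124 in Dunn. All 4 ratios lay between -0.79 and -0.59, with an SD of 0.085. The Cald1 difference, though under 2-fold, was thus the most even of any member with several measured probe sets. A further Cald1 probe set, 1433146_at, was under both floors, with 16.4 in LM8 and 4.27 in Dunn.

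The transgelins are small actin-bundling relatives of calponin. Tagln, also called SM22 and a common marker of smooth muscle, had signals of 1.75 in LM8 and 3.37 in Dunn on its 1 probe set, 1423505_at, under both floors. Tagln2, the form found in most cell types, had 964 in LM8 against 678 in Dunn on its brightest probe set (log2 ratio 0.51) and 311 against 171 on a dimmer one (0.86). The neuronal relative Tagln3 was under both floors, with 2.47 in LM8 and 1.33 in Dunn.

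Other smooth muscle markers gave the same mixed picture. For this and the lists below, the shares over all measured genes were 6.51% at least 2-fold higher and 8.84% lower. Of 19 on the array, 13 were measured, 3 were at least 2-fold higher in LM8, 2 lower and 8 between, with a median log2 ratio of 0.13 against -0.08 over all genes. The smooth muscle myosin heavy chain Myh11 had 1.66 in LM8 and 3.80 in Dunn, under the floors like Actg2, Lmod1, Synpo2, Kcnmb1 and Pln. The higher members were Pdlim7, an actin-associated adaptor (299 in LM8 against 102 in Dunn, 1.56), Ppp1r14a, an inhibitor of myosin phosphatase (56.7 against 21.4, with Dunn just above its floor, 1.40), and vinculin, Vcl (1482 against 673, 1.14). The other Pdlim7 probe sets had log2 ratios of -0.25 and -0.001, and the other Vcl probe set had 0.73, under 2-fold. The lower members were the LIM-domain genes Fhl1 (34.5 in LM8 against 112.5 in Dunn, -1.71) and Fhl2 (530 against 1421, -1.42), of which Fhl2 is known to bind SRF.

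Of 13 measured genes for SRF and its partners, 11 were under 2-fold apart, close to the share over all measured genes (10014 of 11830). Myocardin (Myocd) was under both floors, at 3.49 in LM8 and 2.88 in Dunn. The MRTF genes were measured and nearly level, with 107 in LM8 against 114 in Dunn for Mrtfa (log2 ratio -0.09) and 240 against 290 for Mrtfb (-0.28). Srf itself had probe sets on opposite sides, 84.4 in LM8 against 134 in Dunn on the brighter (-0.67) and 118 against 45.4 on the other (1.38), so it has no settled direction.

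Scai, a known repressor of MRTF activity, was higher in LM8, with 441 against 88.1 in Dunn (log2 ratio 2.32). It was also higher on 2 dimmer probe sets (2.41 and 2.05) and not on another (-0.28). Tead2, which binds a different element in muscle promoters, had 37.8 in LM8 against 76.8 in Dunn (-1.02). Of 13 measured genes in this list, Scai was the 1 higher and Tead2 the 1 lower, and the median was -0.43.

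Early growth and other known targets of SRF were also split. Of 17 measured, 2 passed 2-fold upwards and 3 downwards, 12 stayed between, and the median log2 ratio was -0.54. The early growth gene Egr1 had 34.5 in LM8 against 239 in Dunn (-2.80), the matricellular gene Ccn2 222 against 1069 (-2.27) and Fos 31.3 against 67.5 (-1.11). Vcl and the muscle stress gene Ankrd1 (75.3 in LM8 against 29.9 in Dunn, 1.33) were the higher ones, and the other Ankrd1 probe set had a ratio of 0.15. This list shares Myl9, Actb, Actg1, Srf, Vcl and Tgfb1i1 with the lists above.

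Nonmuscle myosin and its regulators were nearly all within 2-fold, as were 10014 of all 11830 measured genes. Of 18 measured, none was at least 2-fold higher, 17 lay between and 1 was lower, the light chain Myl6b, at the floor in LM8 against 40.9 in Dunn (at least 2.16-fold lower), and the median was -0.07. TGF-beta is a well known inducer of smooth muscle actin. Of 13 measured TGF-beta ligands, receptors and Smads, 2 were higher and none lower, with a median of 0.04. The co-receptor Eng had 157.5 in LM8 against 44.2 in Dunn (1.83) and the ligand Tgfb3 had 182 against 55.7 (1.71). On the other Eng probe set the log2 ratio was at least 0.95, with Dunn at its floor.

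**Figure D3:**
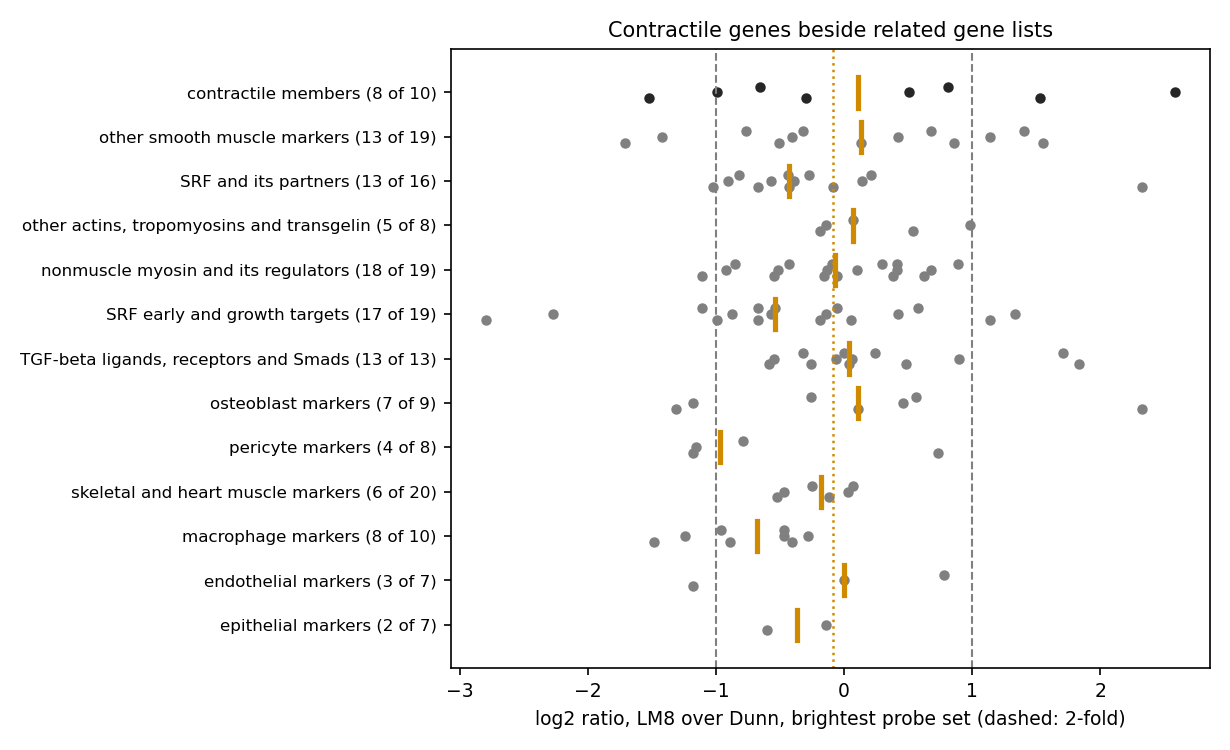
Log2 ratios of LM8 over Dunn for each measured gene of the contractile set (top, dark) and of 12 related lists, with measured and total genes on the array in brackets, the list median as an orange bar, the median of all genes (-0.08) as a dotted line and 2-fold as dashed lines. The contractile genes run from -1.52 to 2.59, around a median of 0.11.

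Of 9 osteoblast markers on the array, 7 were above the floor in each line, and Dmp1 and Phex were under both floors. Among all genes on the array, 11830 of 18193 were measured, so that count alone does not mark a bone origin. Summed osteoblast signals were 14802 in LM8 and 14670 in Dunn. Most of that came from the collagen genes Col1a2 (7350 in LM8 and 8785 in Dunn) and Col1a1 (3537 and 2399). Alpl had 1739 in LM8 against 1266 in Dunn, Omd was higher in LM8 (823 against 164), and Ibsp (96.6 against 239) and Pth1r (492 against 1115) were lower. Fewer cells of a type and less RNA per cell cannot be told apart in such bulk samples.

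With signals raised to the floor, no measured marker of other contractile cells was at least 2-fold higher in LM8 on its brightest probe set. Where Dunn lay at its floor, as for Anpep, the ratio is a lower bound and a larger difference is possible. Of 8 pericyte markers, 4 were above the floor in LM8 and 3 in Dunn, with summed signals of 384 and 759. Rgs5, Mcam, Abcc9 and Kcnj8 were under both floors, and Pdgfrb (212 in LM8 against 471 in Dunn, log2 ratio -1.15) and Notch3 (43.9 against 99.2, -1.18) were lower. Anpep leaned the other way, at 35.1 in LM8 with Dunn at its floor (log2 ratio at least 0.74). Of 20 skeletal and heart muscle markers, 3 were above the floor in LM8 and 5 in Dunn, with summed signals of 288 and 341. These counts depend on the probe set taken for Ckm. They used the one brightest before flooring, with 14.2 in LM8 and 22.8 in Dunn, above the floor only in Dunn. The Ckm probe set brightest after flooring had 21.5 in LM8 and 11.5 in Dunn, above the floor only in LM8. Myog, Myf5, Mylpf and Tnnt3 were among the 14 markers under both floors.

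Of 10 macrophage markers, 4 were above the floor in LM8 and 8 in Dunn, and 2 were at least 2-fold lower. Summed signals were 538 and 1022, mostly from Fcer1g (387 in LM8 against 716 in Dunn, log2 ratio -0.89). Adgre1, Cd68 and Tyrobp, at the floor in LM8, were just above it in Dunn (23.1, 26.2 and 26.3). Csf1r had 26.8 in LM8 against 75.1 in Dunn on its brightest probe set (-1.49, with 0.48 and -0.32 on the others, each with an array at its floor), and Lyz2 was at the floor in LM8 against 44.8 in Dunn. Endothelial markers summed to 150 in LM8 and 241 in Dunn, with 3 and 2 of 7 above the floor, and of the 3 measured Vwf was lower (67.3 against 152), Cldn5 had 36.2 in LM8 with Dunn at its floor (log2 ratio at least 0.78) and Kdr was level at 28.0 and 28.0. Epithelial markers summed to 80.3 and 95.6, with 1 and 2 of 7 above the floor. The part of these markers in the contractile values was not tested. The 3′ to 5′ signal ratio, a sign of RNA integrity, was 1.16 in LM8 and 1.26 in Dunn for beta-actin and 0.789 and 0.708 for Gapdh.

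The annotated genes on each side of the members past 2-fold were looked up after the member values were known, and none of them passed 2-fold in the direction of its neighbour. Only 6.51% of all measured genes passed 2-fold upwards and 8.84% downwards, so no pass among so few genes is unremarkable. Beside Acta2, the death receptor gene Fas was at the floor in LM8 against 41.9 in Dunn (at least 2.21-fold lower) and Stambpl1 had 220 in LM8 against 383 in Dunn (log2 ratio -0.80), both opposite to Acta2. Beside Tpm2, the talin gene Tln1 had 538 in LM8 against 480 in Dunn (0.17) and Car9 24.7 against 13.9 (0.23, with Dunn at its floor). Beside Cnn2, Tmem259 had 371 against 416 (-0.17) and Abca7 60.6 against 100.1 (-0.72).

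Across 8 or 9 other ways of processing the arrays that gave a value, each of the 8 measured genes kept the sign of its ratio. Most of these ways kept the same probe set per gene, so the kept sign does not settle Tpm1, whose probe sets disagreed. Acta2 ranged from 2.32 to 2.83, Tpm2 from 1.43 to 1.77 and Cnn2 from -1.56 to -1.27. The highest ratio of Myl9 was -0.75, and it did not pass 2-fold under any of these 9. With probe sets ending in _x_at or _s_at left out, Acta2 had no measured probe set, which leaves Tpm2 as the 1 contractile gene at least 2-fold higher.

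**Figure D4:**
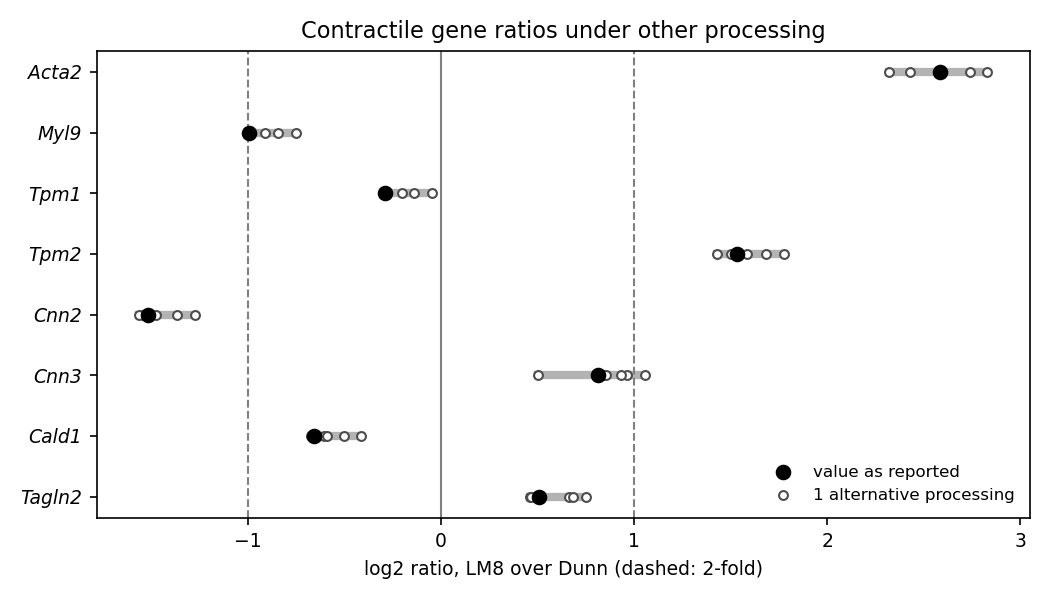
Log2 ratios of LM8 over Dunn for the 8 measured contractile genes as reported (filled) and under each alternative processing (open), with a grey bar over the range and dashed lines at 2-fold. Cnn3 spans 0.50 to 1.06 and crosses the 2-fold line under 1 alternative, while no gene crosses 0.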

How the data were processed

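The authors deposited linear probe set intensities made with MAS5, per the submitters' processing notes; version and settings are not given in the sources used here. Both arrays were at a 2% trimmed mean of 100 as deposited. Per the labels' protocols, 10 µg of total RNA was labelled for each array, and per the file headers both arrays were hybridised together and scanned on 1 scanner on the same day. The 64 control probe sets were set aside and the other 45037 rescaled to a common 2% trimmed mean. Signals under an array's median were set to it before taking log2. Symbols came from the platform annotation, updated by gene identifier to GRCm38.p6 names (99.4% of probe sets with 1 symbol matched); 932 probe sets had several symbols and 9160 none. Each gene was represented by the measured probe set brightest on average in log2 after this flooring. Counts of genes above the floor of each line and summed signals instead took the probe set brightest before it. Genes were counted at 2-fold or more. The number of arrays limits the precision.

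The members, the 12 other lists, the rules and the alternatives were chosen with earlier results of these data known. Named from the other lists were up to 4 genes 2-fold apart and largest in ratio, and genes named in advance (Srf, Mrtfa, Mrtfb, Myocd, Actb, Actg1, Tpm3, Tpm4, Tagln3, Myh11 and Alpl). Other names, which spell out short counts, summed signals or neighbours, were picked once values had been seen. No gene is named for a likeness to a member, since 2 arrays give 1 ratio each. The steps were tested on simulated arrays with a chosen noise level and changes placed only in bright genes. That test does not measure real array or culture error, or how the steps act near the floors. Some listed genes were not analysed here. Python 3.11.15, numpy 2.4.6, pandas 2.3.3, statsmodels 0.14.6 and matplotlib 3.10.9 were used.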

Additional observations from a re-analysis of the deposited data

How the results depend on the processing

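With 1 array per line, the results depend on scaling, floor and probe set choice, and no setting measures culture or array error. No paired analysis was possible because each line has 1 array. For contractile genes, the 2 higher and 1 lower became 1 and 0 with a 3-fold rule, 1 higher without _x_at and _s_at probe sets, and 3 higher with hybridisation controls as the scale, Cnn3 being the added one. For contractile probe sets, 5 higher became 3 with the 3-fold rule, a floor at the 75th percentile or without _x_at and _s_at sets. They became 6 with no floor, 7 with arrays centred on medians and 8 with hybridisation controls as the scale. The 1 lower became 0 with the 3-fold rule and 3 with no floor. The gene median of 0.11 was -0.48 with no floor and -0.25 with a pseudocount, both over all 10 genes since these drop the filter on dim probe sets, and -0.29 without _x_at and _s_at sets, which drop Acta2.

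Over all genes, 770 higher and 1046 lower became 294 and 336 with the 3-fold rule, 377 and 397 under the higher floor, 1237 and 639 with hybridisation controls, and 2553 and 3351 with no floor. With arrays centred on medians they were 1025 and 775. The median of all genes, -0.08, became 0.07 with that centring and 0.16 with hybridisation controls, with contractile medians of 0.26 and 0.35. The contractile median minus that of all genes was 0.19 in both, as in the reported setting, since both only shift every ratio equally. The other settings can change it. It was -0.38 with no floor, -0.12 with a pseudocount and -0.21 without _x_at and _s_at sets, and 0.12 to 0.24 in the rest. Quantile normalization, signal-dependent centring (lowess span 0.3) and averaging probe sets changed no contractile gene count. Signals near the floors, as for Tagln and Cnn1, give no usable ratio.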
